A study of Mus musculus with 4 samples.

Results

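The genes described here are the ligands, receptors, SMAD transducers, ID targets and secreted antagonists of bone morphogenetic protein (BMP) and transforming growth factor beta (TGF-beta) signalling, read in RNA from the mouse cochleovestibular ganglion (CVG) at embryonic day 11.5. They were chosen by gene symbol alone, with a pattern covering the Bmp, Gdf, Tgfb, Inhb, Acvr, Bmpr, Tgfbr, Smad and Id families and antagonists such as Chrd, Chrdl1, Chrdl2, Nog, Grem1, Fst, Fstl3 and Bambi, which found 60 of 25239 gene symbols. The ganglion holds the neurons that will link hair cells of the ear to the brain. There was 1 library each from Isl1CKO, Pou4f1KO, DKO and control embryos, so 4 in all. The labels mark a conditional knockout of Isl1, a knockout of Pou4f1 and a double knockout, the genes of a LIM-homeodomain and a POU-homeodomain transcription factor of young sensory neurons. The alleles, the Cre driver, the genotype of the control and the number of embryos pooled are not given in the sources used here. With no replicates there is no estimate of spread, so differences have no replicate check and no p-value was computed.

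In this pathway a dimeric ligand brings type I and type II receptor kinases together. BMP-type ligands lead to phosphorylation of SMAD1, SMAD5 and SMAD9, and TGF-beta and activin ligands to that of SMAD2 and SMAD3; these join SMAD4 and move to the nucleus, where the Id genes are classical BMP targets and Smad6 and Smad7 encode feedback inhibitors. Secreted antagonists such as noggin, chordin, gremlin and follistatin bind ligands outside the cell. In the ear, BMPs are known for patterning the otic vesicle and its sensory patches, and in the neural tube for setting dorsal cell fates.

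Values are in TPM, the abundance of a gene's transcripts scaled for gene length and for the library's total, so levels of different genes can be compared. Differences are log2 ratios of (TPM + 1), and only ratios of at least 2-fold are called higher or lower in the counts. Aligned sequence ran from 13.6 gigabases in Isl1CKO to 16.6 gigabases in Pou4f1KO and control. A gene at 1 TPM had a mean read depth of 4.95 in Isl1CKO, 5.77 in Pou4f1KO, 5.83 in DKO and 5.93 in control. Pan-neuronal markers (28 of 28 at 1 TPM or more) and ganglion markers (12 of 12) were present in every library. The source is labelled as ganglion neurons, but whole ganglia were dissected and none of the 25 otic epithelium, 19 mesenchyme or 15 endothelial markers was at 0 in any library. Pou4f1 stood at 16.6 TPM in Pou4f1KO and 14.6 TPM in DKO, against 188 TPM in Isl1CKO and 146 TPM in control. Isl1 stood at 854 TPM in Isl1CKO and 579 TPM in DKO, against 340 TPM in Pou4f1KO and 450 TPM in control, so it was above control in both libraries marked as lacking it. A whole-gene value need not cover a deleted part, and the names Isl1CKO and DKO stand below for the libraries labelled so.

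Of the 60 genes, 47 reached 1 TPM in at least 1 library and entered the comparisons, 38 reached it in all 4 libraries, and 21 stood at 10 TPM or more throughout. Bmp2, Gdf6, Gdf7, Gdf10 and Smad9 passed through 1 library only, and Bmp3, Bmp6, Fstl3 and Grem1 through 2 or 3, so the ratios of these 9 genes depend on the library in which they are high. The 13 genes that did not pass were Bmp8a, Bmp8b, Bmp10, Bmp15, Gdf2, Gdf3, Gdf5, Gdf15, Inhba, Inhbb, Inhbc, Acvr1c and Chrdl2. Bmp10, Gdf2 and Chrdl2 were listed at 0 in every library. All 60 lie on protein-coding genes of GENCODE M21, on the same strand.

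**Figure D1:**
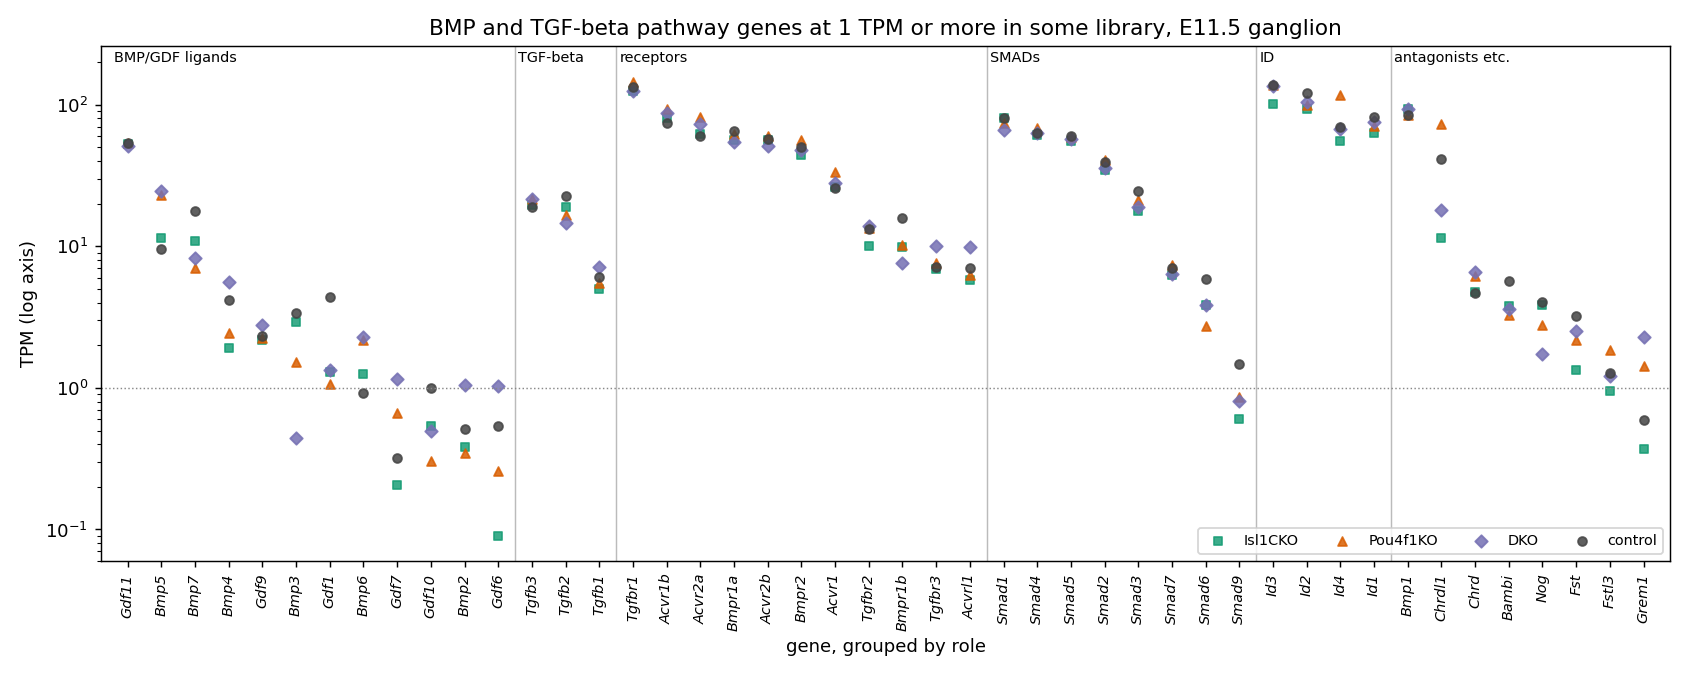
Level of the reported genes that reached 1 TPM in some library, in TPM on a log axis, grouped by role and ordered within a role by mean level. Each symbol is 1 library. Receptor, SMAD and Id symbols mostly lie close together, whereas those of Bmp5, Bmp3, Gdf1, Chrdl1 and Grem1 spread apart.

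Across all 5 comparisons, 7 of the 47 genes passed 2-fold in at least 1: the ligand genes Bmp3, Bmp4, Bmp5, Bmp7 and Gdf1 and the antagonist genes Chrdl1 and Grem1. The other 40, with every receptor, every SMAD gene and all 4 Id genes among them, passed 2-fold in none. Of all 15049 compared genes, 5.81% did so in at least 1 comparison. Bmp3, Gdf1 and Grem1 stayed under 5 TPM in every library and are named to complete the count.

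Bmp5 was the ligand gene that was higher wherever Pou4f1 was marked as deleted. It encodes a BMP ligand of the same subgroup as BMP6 and BMP7 and lies on chromosome 9 (mm10, 75775365 to 75900316, plus strand, up to 7 exons in GENCODE M21). It stood at 23.2 TPM in Pou4f1KO and 24.5 TPM in DKO, against 11.4 TPM in Isl1CKO and 9.63 TPM in control. Both libraries marked as lacking Pou4f1 lay above both that keep it, and within each of these pairs the values were close. The log2 ratio was 1.19 in Pou4f1KO against control and 1.04 in DKO against Isl1CKO, 2 comparisons with no library in common. It was 1.26 in DKO against control, 0.22 in Isl1CKO against control and 0.07 in DKO against Pou4f1KO. Bmp5 was the 1 gene of the 47 past 2-fold, in the higher direction, in both comparisons of the Pou4f1 label, where 0.199% of all compared genes were, and 0 were lower in both (0.711%). With libraries scaled to equal pan-neuronal genes, its ratio in Pou4f1KO against control was 0.92, and with 5 TPM added in place of 1 TPM it was 0.95. The ratio in DKO against Isl1CKO was 0.85 with 5 TPM added and also missed 2-fold on the FPKM scale. Markers of other cell types differed between the same libraries. Neural tube and hindbrain markers summed to 82.2 TPM in Isl1CKO, 159 in Pou4f1KO and 90.1 in DKO, against 53.5 TPM in control, with 14 of 16 past 2-fold higher in Pou4f1KO and 3 of 16 in DKO, both against control. Lhx1 and Lhx2 gave 28.8 and 12.2 TPM of the sum in Isl1CKO and 18.9 and 17.3 TPM in DKO, against 3.05 and 4.03 TPM in control. The median log2 ratio to control of the 16 was −0.006 in Isl1CKO, with 8 below 0, 1.65 in Pou4f1KO and 0.20 in DKO. Of that list, Foxa2 was listed at 0 in Pou4f1KO, and Foxa2 and Ptf1a were in Isl1CKO. Roof plate and dorsal neural tube markers summed to 79.1 TPM in Isl1CKO, 136 in Pou4f1KO and 140 in DKO, against 113 TPM in control. Ttr alone gave 44.8 TPM of the sum in DKO, against 2.36 TPM in control. The median log2 ratio to control of the 17 compared was 0.49 in Pou4f1KO and 0.09 in DKO. Of these 17, 6 were past 2-fold higher in Pou4f1KO and 1 in DKO against control, and Pax7 was listed at 0 in Isl1CKO and DKO. Mesenchyme markers, given with Bmp4 below, had their highest summed level in DKO. In Pou4f1KO 13 of the 19 compared had a ratio to control below 0, with a median of −0.17. The part of these cells in the level of Bmp5 was not tested. In bulk tissue, fewer cells of a type and less RNA per cell cannot be told apart.

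The 250 bases before the RefSeq start of Bmp5 are shown because this gene differs with the label of a homeodomain factor (GRCm38.p6, chr9:75775115-75775364, plus strand). Capitals mark matches to TAAT, a core that many homeodomain factors bind, read on either strand.
Bmp5: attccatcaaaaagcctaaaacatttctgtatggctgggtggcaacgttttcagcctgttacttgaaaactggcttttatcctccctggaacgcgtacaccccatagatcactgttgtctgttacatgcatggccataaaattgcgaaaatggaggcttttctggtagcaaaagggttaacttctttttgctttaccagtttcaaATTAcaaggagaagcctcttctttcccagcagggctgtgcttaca
This stretch holds 1 such match. Of 32851 promoter windows of this length, 54.9% hold at least 1, as do 15 of the 47 windows that belong to the 39 pathway genes found in the RefSeq table. A match describes the letters and does not show binding.

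**Figure D2:**
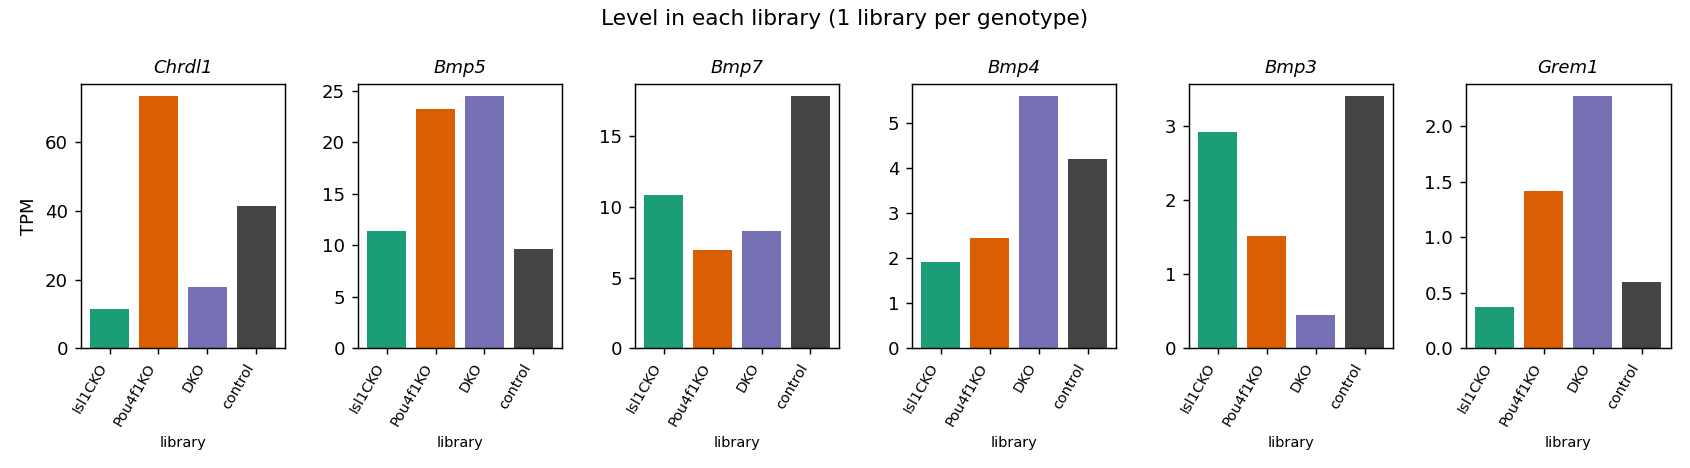
Level in TPM of 6 pathway genes in each library, 1 bar per library, each panel with its own axis starting at 0. Chrdl1 is low in Isl1CKO and DKO, Bmp5 is high in Pou4f1KO and DKO, Bmp7 is highest in control, and Bmp4 is highest in DKO.

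Bmp7, another BMP ligand and one made in otic epithelium, was lower in every mutant library. It lies on chromosome 2 (172868012 to 172940321, minus strand, up to 7 exons) and stood at 10.9 TPM in Isl1CKO, 7.00 in Pou4f1KO and 8.31 in DKO, against 17.8 TPM in control. All mutant levels lay below control, and the level in Isl1CKO lay between those of the other mutants and control. The log2 ratio to control was −0.66 in Isl1CKO, −1.24 in Pou4f1KO and −1.02 in DKO. In DKO against Isl1CKO it was −0.35, which does not pass 2-fold. All these ratios to control share 1 control library. With 5 TPM added they were −0.93 in Pou4f1KO and −0.78 in DKO. Otic epithelium markers were mostly below control too, with their lowest sum in DKO, whereas Bmp7 was lowest in Pou4f1KO. At least 2-fold lower than control were 19 of 25 in Pou4f1KO (1.73% of all compared genes), 17 of 25 in DKO (2.34%) and 3 of 25 in Isl1CKO (0.618%). Their summed level was 799 TPM in Isl1CKO, 625 in Pou4f1KO and 479 in DKO, against 1198 TPM in control, and none was listed at 0. Surface ectoderm and epithelium markers likewise summed to 148, 52.7 and 56.1 TPM in Isl1CKO, Pou4f1KO and DKO, against 249 TPM in control. The part of epithelial content in the level of Bmp7 was not tested.

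Bmp4, the ligand gene known from the sensory patches of the otic vesicle, did not follow either label alone. It lies on chromosome 14 (46383525 to 46390669, minus strand, up to 4 exons) and stood at 1.92 TPM in Isl1CKO, 2.46 in Pou4f1KO and 5.60 in DKO, against 4.20 TPM in control. Both single mutants were low and DKO and control were high. The log2 ratio was 1.18 in DKO against Isl1CKO and 0.93 in DKO against Pou4f1KO. Against control it was −0.83 in Isl1CKO, −0.59 in Pou4f1KO and 0.34 in DKO. With 5 TPM added, the ratio in DKO against Isl1CKO was 0.62. Mesenchyme markers were also high in DKO, with a summed level of 793 TPM, against 516 TPM in Isl1CKO, 681 in Pou4f1KO and 665 TPM in control, none of them listed at 0. Of the 19 compared, 6 were at least 2-fold higher in DKO against Isl1CKO and 3 in DKO against Pou4f1KO. Their part in the level of Bmp4 was not tested.

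Bmp3, which encodes a BMP family member known to oppose other BMPs, was lowest in DKO. It stood at 2.91 TPM in Isl1CKO, 1.51 in Pou4f1KO and 0.446 in DKO, against 3.40 TPM in control. Isl1CKO and control were close, and the mean read depth over the gene in DKO was 2.57, so its lowest value rests on few reads. The log2 ratio was −1.60 in DKO against control and −1.44 in DKO against Isl1CKO. With 5 TPM added in place of 1 TPM, these were −0.62 and −0.54, and on the FPKM scale they were −0.93 and −0.82. The summed level of otic epithelium markers, given with Bmp7, has the same order of libraries as Bmp3, and the part of such cells in its level was not tested.

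Gdf1 was lower in all mutant libraries on its own row, but this row could not be separated from its neighbour. Gdf1, a Nodal co-ligand of early patterning, and Cers1, a ceramide synthase gene, are made from the same stretch of chromosome 8 (70315775 to 70331592 for Gdf1, plus strand), and the Cers1 row starts at the same base. The Gdf1 row stood at 1.30 TPM in Isl1CKO, 1.07 in Pou4f1KO and 1.33 in DKO, against 4.38 TPM in control. The Cers1 row ran the other way, with 4.63 TPM in Isl1CKO, 4.47 in Pou4f1KO and 3.11 in DKO, against 1.83 TPM in control. The log2 ratios of Gdf1 to control were −1.23, −1.38 and −1.21 in Isl1CKO, Pou4f1KO and DKO, and those of the sum of both rows were −0.06, −0.14 and −0.40. The value of Gdf1 is therefore uncertain, and the counts below are also given without it.

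**Figure D3:**
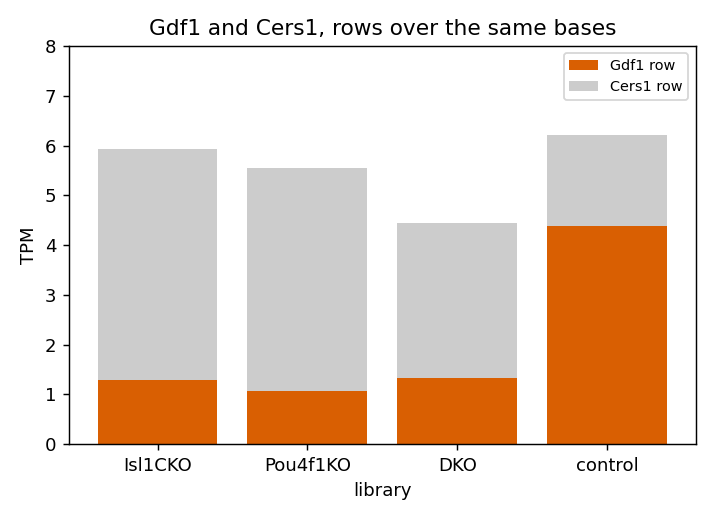
Levels in TPM of the Gdf1 row (lower part of each bar) and the Cers1 row (upper part), which cover the same stretch, in each library. The Gdf1 part is at most 1.33 TPM in the mutants, against 4.38 TPM in control, while the whole bars lie between 4.45 and 6.21 TPM.

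The remaining BMP and GDF ligands were low or even. Gdf11, known for axial patterning and for limiting neuron number, was the most abundant ligand gene and stood at 53.1 TPM in Isl1CKO, 53.6 in Pou4f1KO and 50.8 in DKO, against 53.4 TPM in control. Its largest level was 1.06 times its smallest, the narrowest range among the 47 genes. Bmp6 stood at 1.25 TPM in Isl1CKO, 2.17 in Pou4f1KO and 2.30 in DKO, against 0.923 TPM in control, the same order as Bmp5 with no ratio past 2-fold. Gdf7, a roof plate ligand of the neural tube, was at 0.207 TPM in Isl1CKO, 0.665 in Pou4f1KO and 1.16 in DKO, against 0.322 TPM in control. Gdf9 ranged from 2.17 to 2.76 TPM. Summed over all 20 BMP and GDF ligand genes, the level was 87.2 TPM in Isl1CKO, 95.4 in Pou4f1KO and 101 in DKO, against 99.1 TPM in control, and Gdf11 made up the largest part of each sum.

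The TGF-beta and activin ligands differed little. Tgfb2, known for inner ear and craniofacial development, stood at 18.8 TPM in Isl1CKO, 16.6 in Pou4f1KO and 14.6 in DKO, against 22.8 TPM in control, with log2 ratios to control of −0.27, −0.44 and −0.62. Tgfb3 stood at 19.6 TPM in Isl1CKO and 21.7 TPM in both Pou4f1KO and DKO, against 19.0 TPM in control. Tgfb1 was at 4.99 TPM in Isl1CKO, 5.49 in Pou4f1KO and 7.09 in DKO, against 6.09 TPM in control. The activin and inhibin beta genes Inhba, Inhbb and Inhbc were under 1 TPM in every library.

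No receptor gene passed 2-fold in any comparison. By mean read depth Tgfbr1, the type I receptor of TGF-beta also called ALK5, lay below Acvr1b in every library, at 277 against 399 in Isl1CKO. In TPM Tgfbr1 was the most abundant and stood at 125 TPM in Isl1CKO, 144 in Pou4f1KO and 126 in DKO, against 134 TPM in control. The activin receptor genes Acvr1b (80.7, 93.6 and 87.4 TPM in Isl1CKO, Pou4f1KO and DKO, against 73.7 TPM in control) and Acvr2a (62.2, 82.2 and 73.6 TPM, against 59.7 TPM in control) followed, and Acvr2b ranged from 51.3 to 60.1 TPM. Their partners in BMP reception were of similar level, with Bmpr1a between 54.5 and 65.2 TPM and the type II receptor gene Bmpr2 between 43.9 and 56.7 TPM. Tgfbr2, the type II receptor of TGF-beta, was far below Tgfbr1, between 9.99 and 13.8 TPM. Of the 11 receptor genes compared, 8 had a ratio above 0 in Pou4f1KO against control, as did 53.8% of all compared genes. Their median was 0.08, or −0.18 under pan-neuronal scaling, which moved the median of all compared genes by −0.27.

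The receptor gene farthest from control was Bmpr1b, which encodes the BMP type I receptor ALK6. It stood at 9.96 TPM in Isl1CKO, 10.2 in Pou4f1KO and 7.67 in DKO, against 15.9 TPM in control, with log2 ratios to control of −0.62, −0.59 and −0.96. All mutants were below control on this gene, and none passed 2-fold. Acvrl1, the endothelial type I receptor ALK1, ran differently, at 5.78 TPM in Isl1CKO, 6.23 in Pou4f1KO and 9.84 in DKO, against 7.07 TPM in control. Endothelial markers had the same order of summed levels, 119 TPM in Isl1CKO, 151 in Pou4f1KO and 196 in DKO, against 166 TPM in control, none of 15 at 0. Their part in the level of Acvrl1 was not tested. Tgfbr3, which encodes the co-receptor betaglycan, was at 6.97, 7.56 and 9.97 TPM in Isl1CKO, Pou4f1KO and DKO, against 7.13 TPM in control.

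Among the SMAD genes, Smad1 and Smad5 of the BMP branch and the shared Smad4 were the most abundant in TPM. By mean read depth Smad5 lay below Smad2 and Smad3 in every library, at 67.8 against 146 and 87.4 in Isl1CKO. Smad1 stood at 80.0 TPM in Isl1CKO, 73.7 in Pou4f1KO and 66.3 in DKO, against 80.3 TPM in control. Smad4 stood at 60.6 TPM in Isl1CKO, 68.4 in Pou4f1KO and 63.5 in DKO, against 63.4 TPM in control. Smad5 stood at 55.0 TPM in Isl1CKO, 58.7 in Pou4f1KO and 57.1 in DKO, against 59.7 TPM in control, so these signal carriers were even, while Smad9 was under 1 TPM in every mutant and at 1.48 TPM in control. Of the TGF-beta branch, Smad2 ranged from 34.5 to 40.6 TPM and Smad3 from 17.7 TPM in Isl1CKO to 24.5 TPM in control. Among the feedback inhibitors, Smad6 stood at 3.82 TPM in Isl1CKO, 2.74 in Pou4f1KO and 3.82 in DKO, against 5.90 TPM in control, with log2 ratios to control of −0.52, −0.88 and −0.52. Smad7 ranged from 6.30 to 7.32 TPM. No SMAD gene passed 2-fold in any comparison.

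The Id genes, which encode inhibitors of basic helix-loop-helix factors and serve as a usual reading of BMP signalling, were abundant in every library and were all lowest in Isl1CKO. Id3 stood at 101 TPM in Isl1CKO, 139 in Pou4f1KO and 136 in DKO, against 138 TPM in control. Id1 stood at 62.9 TPM in Isl1CKO, 70.9 in Pou4f1KO and 75.0 in DKO, against 81.4 TPM in control. Id2 stood at 92.8 TPM in Isl1CKO, 100 in Pou4f1KO and 105 in DKO, against 121 TPM in control. The log2 ratios of Isl1CKO to control lay between −0.45 and −0.31 for the 4 genes, were negative for all 4 under each of 3 other scalings and FPKM, and none passed 2-fold. In DKO against Pou4f1KO, which repeats the Isl1 label with other libraries, 2 of the 4 were above 0 and 2 below. Mesenchyme (median −0.51), endothelial (−0.40) and otic epithelium markers (−0.56) were also lower in Isl1CKO than in control, and the part of such cells in the Id levels was not tested.

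Id4 stood apart from the other Id genes. It was at 55.6 TPM in Isl1CKO, 117 in Pou4f1KO and 67.2 in DKO, against 69.1 TPM in control, so it was high in 1 library alone. The log2 ratio was 0.75 in Pou4f1KO against control and −0.79 in DKO against Pou4f1KO. Neural tube and hindbrain markers were highest in the same library, as given above, and their part in the level of Id4 was not tested. The upstream stretches of Id2, Id3 and Id4 are shown because these genes read out the pathway. They are 250 bases before the RefSeq start (GRCm38.p6), at chr12:25096093-25096342 on the minus strand for Id2, chr4:136143572-136143821 on the plus strand for Id3 and chr13:48260866-48261115 on the plus strand for Id4. Capitals mark GGCGCC, a GC-rich core of BMP-responsive SMAD elements that reads the same on both strands.
Id2: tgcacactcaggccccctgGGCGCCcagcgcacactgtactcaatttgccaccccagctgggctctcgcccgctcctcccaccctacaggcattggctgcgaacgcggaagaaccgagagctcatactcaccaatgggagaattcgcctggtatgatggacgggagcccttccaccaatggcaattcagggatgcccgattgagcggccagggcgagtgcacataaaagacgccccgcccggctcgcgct
Id3: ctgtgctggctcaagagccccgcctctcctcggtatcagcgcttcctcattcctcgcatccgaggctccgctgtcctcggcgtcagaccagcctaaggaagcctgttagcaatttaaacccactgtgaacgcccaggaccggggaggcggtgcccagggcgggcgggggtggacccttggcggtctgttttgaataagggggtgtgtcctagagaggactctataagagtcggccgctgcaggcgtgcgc
Id4: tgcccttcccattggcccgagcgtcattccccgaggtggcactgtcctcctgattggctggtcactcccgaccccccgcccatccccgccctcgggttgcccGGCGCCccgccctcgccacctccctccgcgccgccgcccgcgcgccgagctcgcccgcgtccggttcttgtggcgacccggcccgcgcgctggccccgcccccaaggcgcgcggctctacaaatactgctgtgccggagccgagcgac
Id2 and Id4 hold 1 match each and Id3 holds 0. The first base of the match lies 231 bases before the start in Id2 and 148 bases before it in Id4. The letters GGCGCC are in 9.59% of the 32851 windows and in 10 of the 47 windows of pathway genes. The palindromic SMAD element GTCTAGAC was in 0.167% of all windows and in 0 of the 47. The 3 motifs searched do not overlap in these stretches, and a match is a description of the letters.

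Chrdl1 was the antagonist gene past 2-fold in the most comparisons, 3 of 5. It encodes a chordin-like secreted protein that binds BMP4 and other BMPs, and lies on chromosome X (143285674 to 143394262, minus strand, up to 12 exons). It stood at 11.4 TPM in Isl1CKO, 73.4 in Pou4f1KO and 17.9 in DKO, against 41.5 TPM in control. Both libraries marked as lacking Isl1 lay below both that keep it. The log2 ratio was −1.77 in Isl1CKO against control and −1.97 in DKO against Pou4f1KO, which use separate libraries, and these are levels 3.63-fold and 4.09-fold lower. Chrdl1 was the 1 gene of the 47 that was at least 2-fold lower in both comparisons of the Isl1 label, where 0.213% of all compared genes were, and 0 were higher in both (0.179%). It was also higher where Pou4f1 was marked as deleted, with ratios of 0.81 in Pou4f1KO against control and 0.61 in DKO against Isl1CKO, neither past 2-fold. In DKO against control the ratio was −1.17.

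The direction of Chrdl1 rests on the Isl1 labels, which the level of Isl1 itself does not check. Sex-linked genes also differed in Isl1CKO: Y-linked Ddx3y was at 7.08 TPM in Isl1CKO, 18.5 in Pou4f1KO and 17.0 in DKO, against 20.2 TPM in control. Xist, the X-inactivation RNA, was at 195 TPM in Isl1CKO, 138 in Pou4f1KO and 127 in DKO, against 128 TPM in control. In DKO against Pou4f1KO, Ddx3y and Xist both had a log2 ratio of −0.12. The part of embryo sex in the level of Chrdl1 was not tested.

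**Figure D4:**
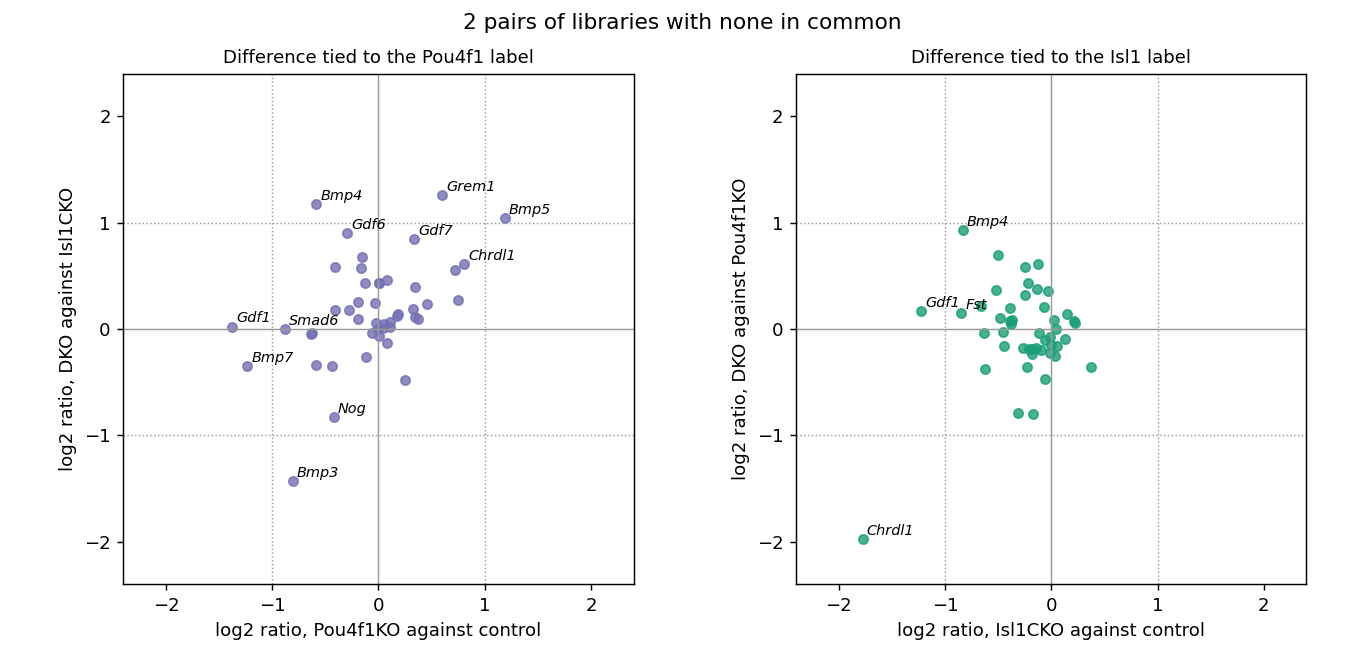
Log2 ratio of (TPM + 1) for the 47 genes in pairs of comparisons that share no library: left, Pou4f1KO against control on the x axis and DKO against Isl1CKO on the y axis; right, Isl1CKO against control on the x axis and DKO against Pou4f1KO on the y axis. Dotted lines mark 2-fold. Bmp5 lies beyond them at the upper right of the left panel and Chrdl1 at the lower left of the right panel.

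The remaining antagonists were at low or even levels. Bmp1, whose product is not a BMP but a protease that cleaves chordin and procollagens, stood at 93.9 TPM in Isl1CKO, 84.6 in Pou4f1KO and 93.6 in DKO, against 84.8 TPM in control. Grem1, which encodes gremlin, was at 0.370 TPM in Isl1CKO, 1.42 in Pou4f1KO and 2.27 in DKO, against 0.596 TPM in control, with log2 ratios of 1.04 in DKO against control and 1.26 in DKO against Isl1CKO, or 0.38 and 0.44 with 5 TPM added. Grem1 had the order of levels of Gdf7, at a mean read depth of 13.2 in DKO and 1.83 in Isl1CKO. Nog, which encodes noggin, was at 3.86 TPM in Isl1CKO, 2.78 in Pou4f1KO and 1.74 in DKO, against 4.07 TPM in control. Fst, which encodes the activin antagonist follistatin, was at 1.34 TPM in Isl1CKO, 2.17 in Pou4f1KO and 2.52 in DKO, against 3.21 TPM in control. The pseudoreceptor gene Bambi was at 3.29 to 3.78 TPM in the mutants, against 5.66 TPM in control, and Chrd, Nog, Fst and Bambi passed 2-fold in no comparison.

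**Figure D5:**
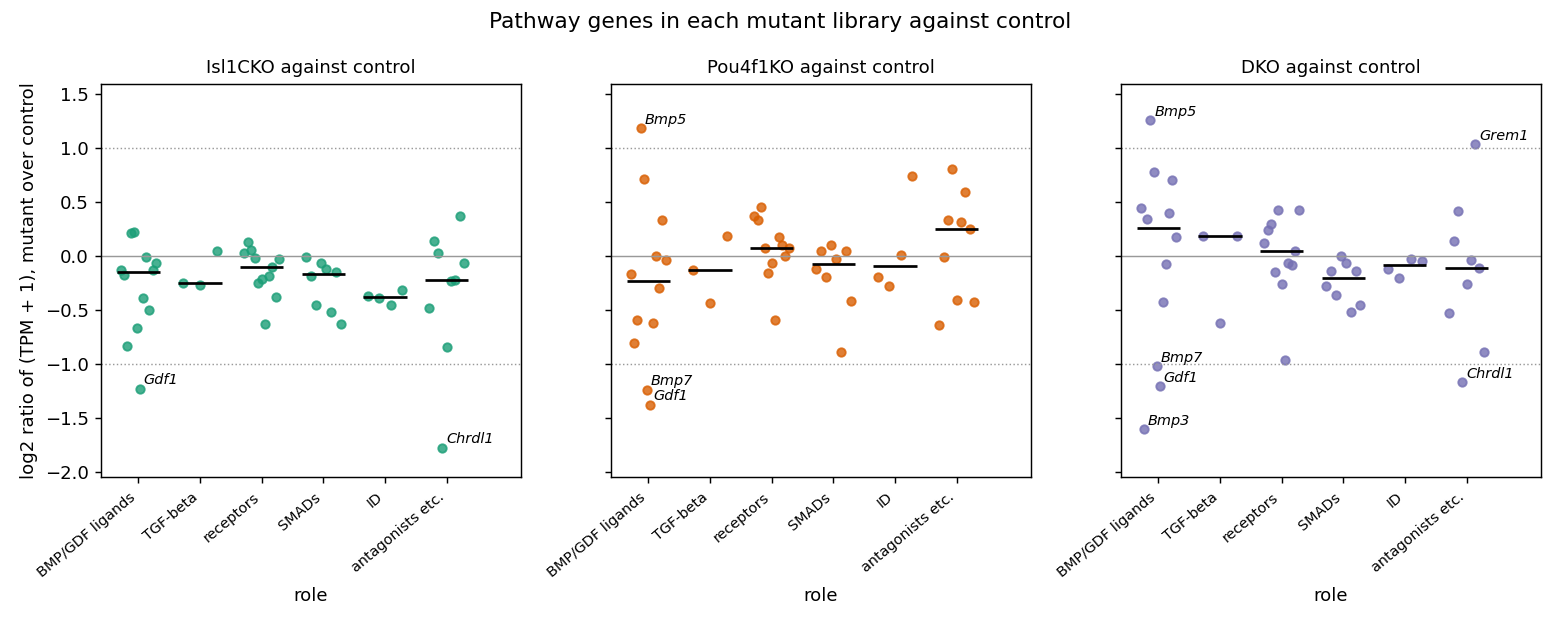
Log2 ratio of (TPM + 1) of each mutant library to control for the 47 genes, 1 dot per gene, by role, with black lines at the median of a role and dotted lines at 2-fold. Genes past 2-fold are named and belong to the ligands and the antagonists, while receptors, SMAD genes and Id genes lie between the dotted lines.

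By count, Isl1CKO against control had 0 of 47 genes higher (0.585% of all compared genes) and 2 lower, Chrdl1 and Gdf1 (0.618%), or 1 lower with Gdf1 and Cers1 summed. Small negative ratios were common there: 9 of 47 were above 0 (19.1%), against 43.5% of all compared genes, and the median was −0.18, against −0.02 for all compared genes. Under pan-neuronal scaling these medians were −0.29 and −0.13. Pou4f1KO against control had 1 gene higher, Bmp5 (0.977%), and 2 lower, Bmp7 and Gdf1 (1.73%), or 1 lower with the sum. The median of the 47 was −0.00, against 0.02 for all compared genes. DKO against control had 2 higher, Bmp5 and Grem1 (1.01%), and 4 lower, Bmp3, Bmp7, Chrdl1 and Gdf1 (2.34%), or 3 lower with the sum, with a median of −0.06, against −0.01. These comparisons share the control library.

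DKO against Isl1CKO had 3 genes higher, Bmp4, Bmp5 and Grem1 (0.87% of all compared genes), and 1 lower, Bmp3 (1.23%), with a median of 0.12, against 0.01. DKO against Pou4f1KO had 0 higher (0.645%) and 1 lower, Chrdl1 (1.12%), with a median of −0.03, against −0.02. No ligand gene passed 2-fold in this last comparison. As a description of separate pairs of libraries, the ratios of the Pou4f1 label had the same sign in both backgrounds for 31 of 47 genes (66.0%, against 60.2% of all compared genes), and those of the Isl1 label for 24 of 47 (51.1%, against 56.3%). Both shares are close to those of all genes.

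Other genes of the pathway, outside the symbol families above, were taken from 7 lists with 126 symbols, of which 121 were in the files and 103 were compared. In Isl1CKO against control 0 were higher (0.585% of all compared genes) and 1 lower (0.618%). The lower gene was Itgb8, which encodes an integrin subunit that takes part in freeing TGF-beta from its latent form. Itgb8 was at 2.47 TPM in Isl1CKO, 8.75 in Pou4f1KO and 2.41 in DKO, against 6.18 TPM in control, low in the same libraries as Chrdl1. In Pou4f1KO against control 1 was higher (0.977% of all compared genes), Msx3 (log2 ratio 2.32), a homeobox gene of the dorsal neural tube, and 4 were lower (1.73%). In DKO against control 1 was higher (1.01% of all compared genes), Sostdc1 (log2 ratio 1.17), which encodes a BMP and WNT antagonist, and 5 were lower (2.34%). Msx3 was at 0.356 TPM in Isl1CKO, 5.78 in Pou4f1KO and 0.422 in DKO, against 0.363 TPM in control. Sostdc1 was at 0.616 TPM in Isl1CKO, 0.711 in Pou4f1KO and 3.16 in DKO, against 0.846 TPM in control. Both genes entered the comparisons only through the library where they are high, so the filter fixed which library was highest. In DKO against Isl1CKO 3 were higher (0.87% of all compared genes), Sostdc1, Col1a1 and Col1a2, and Tbx2 was lower (1.23%). In DKO against Pou4f1KO 3 were higher (0.645% of all compared genes), Sostdc1, Snai1 and Tgfbi, and Itgb8 and Msx3 were lower (1.12%). No co-receptor, no further ligand and none of 29 intracellular regulators such as Smurf1, Ski and Skil passed 2-fold in any comparison. Of all compared genes only 5.81% passed it in at least 1, so few would be looked for in lists this short.

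The lower genes were mostly of the list of 15 BMP-responsive genes, several of which are also otic genes. Tbx2, a T-box repressor of otic development, was at 46.7 TPM in Isl1CKO, 29.6 in Pou4f1KO and 16.3 in DKO, against 83.4 TPM in control. Dlx5, a homeobox gene of the dorsal otic vesicle, was at 3.08 TPM in Isl1CKO, 1.49 in Pou4f1KO and 1.09 in DKO, against 5.99 TPM in control. Dlx3 (−1.08 and −1.34 in Pou4f1KO and DKO against control) and Dlx6 (−1.16 and −0.96) had ratios of the same sign, and Msx2 had −0.41 and −1.01. Other genes of the list ran the other way. Msx3 (2.32 and 0.06) was past 2-fold in Pou4f1KO, while Tbx3 (0.451 and 0.996), Dlx1 (0.37 and 0.50) and Dlx2 (0.33 and 0.27) were not. In all, 7 of 15 had a ratio above 0 in Pou4f1KO and 5 of 15 in DKO. Tbx2 and Dlx5 also stand on the otic epithelium list, whose summed levels are given with Bmp7, and Msx2 and Msx3 on the list of roof plate markers. Of 17 TGF-beta-responsive genes 0 passed 2-fold in any mutant against control. Of all compared genes, 1.20% did in Isl1CKO, 2.70% in Pou4f1KO and 3.35% in DKO. Col1a1 and Col1a2, also mesenchyme markers, had ratios of 1.24 and 1.15 in DKO against Isl1CKO.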

How the data were processed

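RNA of 4 cochleovestibular ganglion libraries, 1 per genotype label, was extracted from frozen tissue with Trizol and sequenced from strand-specific libraries, per the labels' protocols. The submitters' processing notes name mm10 and list StringTie, HISAT2, Trimmomatic, SAMtools and FastQC; their versions and settings, and the annotation, are not given in the sources used here. Every deposited table held TPM, which the authors computed and which has the same total in every library, FPKM, which the authors computed and which is TPM times 1 constant per library, and coverage, the deposited mean read depth per gene, per the file headers. No read counts were in these tables, so no count test was run. Rows sharing a symbol were summed, and genes needed 1 TPM in at least 1 library (15049 of 25239).

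Ratios are log2 of (TPM + 1), called from 2-fold on, and adding 1 understates differences of weakly expressed genes. Aligned gigabases come from coverage divided by FPKM, a quotient that was the same within 0.001 for 63.7% to 63.9% of genes above 0. The code that makes the calls was run on simulated data. These held no spread between embryos or dissections, so that run does not check the calls reported here. Named are genes past 2-fold with 5 TPM in some library and the 3 most abundant of each role; Bmpr1b, Acvrl1, Tgfbr3, Smad6, Tbx2, Dlx5 and others described singly were chosen after their values were seen. A gene that the symbol pattern also found is counted but not reported here. The genes and lists were chosen with earlier results of these data known. Alternatives were the pseudocount, the filter, FPKM, 3 scalings, the handling of repeated symbols, the fold threshold and, added after seeing the data, Gdf1 summed with Cers1. Python 3.11.15 with pandas 2.3.3 and matplotlib 3.10.9 was used.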

Additional observations from a re-analysis of the deposited data

Results flagged for a closer look

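Bmp4 was the 1 gene, of the 34 pathway genes with 5 TPM in some library, for which the difference tied to a label ran in opposite directions in both backgrounds by at least 1.5-fold each way. For the Pou4f1 label the log2 ratio was −0.59 in Pou4f1KO against control and 1.18 in DKO against Isl1CKO. For the Isl1 label it was −0.83 in Isl1CKO against control and 0.93 in DKO against Pou4f1KO. With 1 library per genotype the difference between these ratios was not tested. The gene stood between 1.92 and 5.60 TPM, at a mean read depth of 9.49 in Isl1CKO, 14.2 in Pou4f1KO and 32.6 in DKO, against 24.9 in control.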

How the results depend on the processing

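No paired analysis was possible because each genotype had 1 library, and no library could be left out. Chrdl1 stayed past 2-fold in Isl1CKO and DKO against control and in DKO against Pou4f1KO under 9 of 9 other settings, with ratios from −1.89 to −1.50, −1.23 to −1.02 and −2.03 to −1.75, and Bmp5 did so in DKO against control (1.01 to 1.34). The filter settings and the handling of repeated symbols leave these ratios unchanged by design. Only the pseudocounts, FPKM and the 3 scalings could move them. Bmp7 (−0.93), Bmp4 in DKO against Isl1CKO (0.62) and Bmp5 in Pou4f1KO against control (0.95) fell short of 2-fold with 5 TPM added. No called gene changed direction under FPKM, the 3 scalings or the sum of Gdf1 and Cers1. The other settings could not change a direction. Counts were small and changed with the setting. For higher in Pou4f1KO, DKO against control, DKO against Isl1CKO and DKO against Pou4f1KO, a pseudocount of 0.1 TPM gave 3, 4, 6 and 3 genes, and a 1.5-fold threshold 5, 4, 8 and 4. For lower in Isl1CKO, Pou4f1KO, DKO against Isl1CKO and DKO against Pou4f1KO, 0.1 TPM gave 6, 5, 2 and 2, and 1.5-fold 7, 8, 2 and 3, with 7 lower in DKO against control. Genes past the threshold the same way in both comparisons of the Pou4f1 label numbered 3 with 0.1 TPM and 4 at 1.5-fold, but 0 with 5 TPM added, FPKM or pan-neuronal scaling. With 5 TPM added, against control 1 was lower in Isl1CKO, 0 were higher or lower in Pou4f1KO and 1 higher and 1 lower in DKO, and DKO against Isl1CKO had 0 and 0. A 5 TPM filter left 1 lower in Isl1CKO and Pou4f1KO, 1 higher and 2 lower in DKO against control, and 0 lower in DKO against Isl1CKO. FPKM left 1 lower in each mutant and 1 higher in DKO against control, and 0 and 0 in DKO against Isl1CKO. Gdf1 summed with Cers1 left 1 lower in Isl1CKO and in Pou4f1KO. Pan-neuronal scaling moved the median of all compared genes by −0.11 in Isl1CKO and −0.27 in Pou4f1KO against control and by 0.21 in DKO against Pou4f1KO. It gave 0 genes higher in Pou4f1KO against control and 1 in DKO against Pou4f1KO, and medians of −0.29 in Isl1CKO, −0.28 in Pou4f1KO and, reversed, 0.19 in DKO against Pou4f1KO. The cause was not tested for any of these changes beyond what each setting alters. Genes under about 1 TPM rest on a mean depth under 6.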

Other observations

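Among the BMP and GDF ligand genes, Bmp4, Bmp5, Bmp6 and Gdf9 had their highest level in DKO. Bmp2, Gdf6 and Gdf7 did too, but they entered the comparison only through that library, so the filter fixed this. Gdf6, a ligand of the dorsal neural tube and of joints, was at 0.0900 TPM in Isl1CKO, 0.257 in Pou4f1KO and 1.03 in DKO, against 0.539 TPM in control. Bmp2 was at 0.383 TPM in Isl1CKO, 0.348 in Pou4f1KO and 1.05 in DKO, against 0.510 TPM in control. Bmp3 and Gdf11 were lowest in DKO. Of all 47 genes compared, 24 had their lowest level in Isl1CKO (51.1%), against 27.8% of all compared genes. Isl1CKO was also the library with the least aligned sequence, 13.6 gigabases, and with the lowest summed levels of mesenchyme (516 TPM) and endothelial markers (119 TPM). The part of these in the order of levels was not tested.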
